A study of Rattus norvegicus with 24 samples.

Results

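Dense cocaine INO80 domains are runs of closely placed INO80 peaks in the nucleus accumbens of cocaine rats, over which the saline rats have no listed peak. They were found in the cocaine peak list on chromosomes 1 to 20 and X. Peaks were chained when the next one began no more than 10000 bp past the furthest end so far. Chains of 10 or more peaks were kept if no base of their span lay under a saline peak. This gave 1768 domains holding 30528 of the 71280 cocaine peaks on these chromosomes (42.8%). The members were therefore chosen by peak position, peak number and the absence of saline peaks, and those measures describe the domains and test nothing.

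INO80 is the motor subunit of a large remodeller of chromatin that slides and spaces nucleosomes and can exchange histone variants. The complex is best known at gene promoters and enhancers, at replication forks and at sites of DNA repair. The nucleus accumbens is the ventral part of the striatum, made up mostly of medium spiny neurons, and receives dopamine input that is central to reward and drug seeking.

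The study profiled INO80 by chromatin immunoprecipitation and sequencing (ChIP-seq) in rats that had learned to self-administer cocaine, with tissue taken 30 days after extended access, and in saline rats whose labels carry the same protocol text. Each treatment has 3 numbered samples for ChIP, with 7.5 µg of antibody per sample, and 3 for input DNA. Each of these has 2 entries, with titles ending in 1 and 2, or 24 entries in all. The titles do not say what that ending stands for. The labels give no genotype, strain or age, and do not say whether a numbered sample is 1 animal. Peak calling by the authors pooled the samples of a treatment, so there is 1 list for each, no replicate error and no test between treatments.

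The pools entering peak calling held 43489910 cocaine and 37905014 saline ChIP tags, against 101490635 and 100697179 input tags. The saline list held 2352 peaks, against 71723 in the cocaine list. A lack of saline peaks was common among all cocaine sites. Of the 71280 cocaine peaks on these chromosomes, 69519 shared no base with a saline peak (97.5%). Of the 1914 chains with 10 or more peaks, 1768 did not (92.4%), so the saline condition removed 146 chains. The lowest pileup in the saline list was 7 fragments and its lowest −log10 p-value was 4.94. Weaker saline signal under the domains would not be listed, so the domains lack saline peaks, which does not show that they lack saline INO80.

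The domains spanned kilobases to more than 100 kb and held between 10 and 76 peaks. The median domain had 14 peaks (quartiles 11 and 20) over a span of 24.8 kb (quartiles 16.0 and 35.0). Spans ran from 2.91 kb to 104.1 kb. Together the spans took up 47.9 Mb, of which 4.29 Mb (8.95%) lay under peaks. Most of the sequence inside a domain was therefore free of called peaks.

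Larger domains were less common. Domains with 20 or more peaks numbered 465 (26.3%, Wilson 95% interval 24.3 to 28.4), those with 30 or more 142 (8.03%, 6.85 to 9.39) and those with 50 or more 21 (1.19%, 0.778 to 1.81). Spans exceeded 50 kb in 139 domains (7.86%) and stayed under 10 kb in 163 (9.22%). The intervals cover counting error only, and neighbouring domains are not independent. Peak number and span rose together, with a Spearman correlation of 0.54 across the 1768 domains. Peaks per kb fell as the span grew, with a correlation of -0.70, which the chaining distance and the minimum of 10 peaks partly fix.

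**Figure D1:**
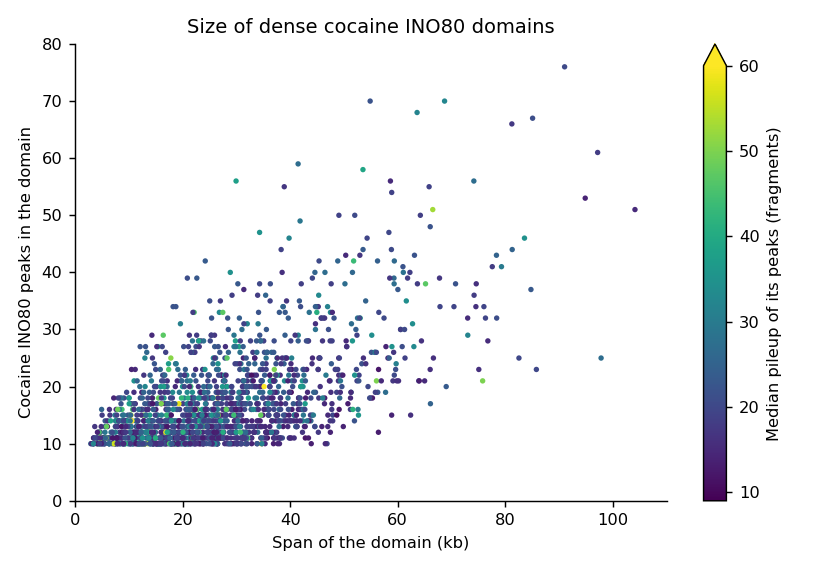
Number of cocaine INO80 peaks (vertical axis) against span in kb (horizontal axis) for each of the 1768 domains, 1 point per domain, coloured by the median pileup of its peaks. Most points lie below 30 peaks and 50 kb, and 21 domains reach 50 peaks or more.

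Members just inside and just outside the limit of 10 peaks were alike in their values. The 231 domains of exactly 10 peaks had a median span of 16.0 kb, a median summit spacing of 1021 bp and a median pileup of 19. The 289 saline-free chains of 9 peaks had 15.4 kb, 1095.5 bp and 19. The limit cuts through a continuous range of chain sizes.

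The domain with most peaks was at chr1:82139813-82230846 (rn6), with 76 peaks over 91.0 kb. Its peaks fell into several crowded stretches. Peaks 7 to 28 lay between 13.989 and 25.987 kb from its start, and after a gap of 8750 bp peaks 29 to 38 lay between 34.737 and 39.622 kb. The highest pileup, 67 fragments, stood at 43.956 kb, beside a peak of 46 fragments at 43.602 kb and 1 of 8 fragments at 43.414 kb. From 53.876 kb onward the last 32 peaks were lower, and none of them passed 30 fragments. The median pileup was accordingly 28.5 over the left 38 of its peaks and 16.5 over the right 38.

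The next domains by peak number differed in how crowded they were. The domain at chr7:70846370-70901240 held 70 peaks in 54.9 kb, or 1.28 peaks per kb against 0.835 in the 76-peak domain, with pileups from 11 to 52 and a median of 22. A domain of equal number at chr11:83881016-83949725 spanned 68.7 kb and stood higher, with a median pileup of 32.5 and a highest of 66. The domain at chr6:134958986-135022585 had 68 peaks and a median pileup of 32, that at chrX:21518227-21603307 had 67 and 21, and that at chr5:157874699-157955923 had 66 and 17.5. Peak number and peak height thus varied separately among these 6 domains. Across all 1768 domains the Spearman correlation of peak number with median pileup was 0.13.

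The widest domain, at chr8:49051303-49155423, covered 104.1 kb with 51 peaks. All of them were modest, with pileups from 9 to 30 and a median of 15. The domain at chr1:244630388-244728208 was nearly as wide, at 97.8 kb, with only 25 peaks and a median spacing of 4082.5 bp. Its pileups ran from 11 to 43 around a median of 27. The domains at chr12:40702139-40799316 (97.2 kb, 61 peaks), chr1:187759894-187854761 (94.9 kb, 53 peaks) and chr8:82043430-82129214 (85.8 kb, 23 peaks) complete the widest 6 with the 76-peak domain. The domain on chromosome 8 with 23 peaks had no more than 2 summits within 1000 bp of a neighbour in any 1 stretch. A wide domain could therefore be a dense run or a sparse one.

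The most crowded domains by peaks per kb were short, and peaks covered 41.1% to 74.2% of their spans. At chr16:83824615-83828266, 13 peaks lay within 3.65 kb, with pileups of 19, 11, 11, 15, 22, 19, 17, 12, 13, 22, 24, 14 and 22 in order. Their summits were 116 to 422 bp apart. At chr4:139670121-139673033, 10 peaks with pileups of 25, 31, 28, 13, 32, 26, 26, 21, 10 and 18 covered 74.2% of 2.91 kb. This was the highest coverage among all domains, whose median was 8.61%. The other 4 of this kind, at chr14:79309873-79312923, chr4:113885107-113890035, chr3:159305346-159308774 and chrX:10510316-10513761, held 10 to 16 peaks at 3.19 to 3.28 per kb.

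Neighbouring summits were usually under 1 kb apart. Over the 28760 spacings between successive summits the median was 817 bp (quartiles 364 and 2119). Spacings under 250 bp made up 13.0% of them, those under 500 bp 35.0% and those under 1000 bp 55.7%. Only 8.17% exceeded 5000 bp, and the widest was 10346 bp, near the limit that chaining sets. The distribution had a broad maximum at short distance and a long tail. The fullest class of 50 bp was 200 to 250 bp with 1742 spacings, against 587 between 100 and 150 bp, 898 between 450 and 500 bp and 441 between 950 and 1000 bp. The shortest spacing was 91 bp, and the caller used a fragment length of 54 bp, so closer summits would tend to share 1 peak. That length is close to the tag size of 51 bp. Peak number and spacing can depend on it, and no other fragment length was tested.

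**Figure D2:**
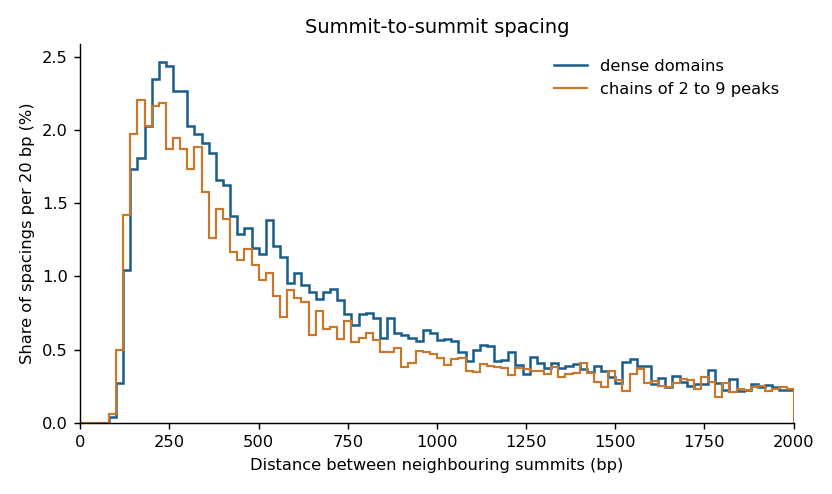
Share of summit spacings (vertical axis, % per 20 bp) against the distance between neighbouring summits in bp (horizontal axis, up to 2000 bp), for the dense domains and for chains of 2 to 9 peaks. The domains are fullest at 220 to 240 bp and the smaller chains at 160 to 180 bp; the smaller chains hold the larger share below 180 bp and the domains the larger share in every class from 200 to 1240 bp.

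Spacing differed widely from domain to domain. The median spacing of a domain ran from 178 to 6085 bp, with quartiles of 551 and 1484.75 bp. Domains of 30 or more peaks had a median spacing of 625 bp, against 1021 bp in domains of 10. Domains under 10 kb had a median spacing of 410 bp and those of 40 kb or more had 1096 bp. Most domains also held a wide empty stretch. The widest spacing of a domain had a median of 6478 bp, and in 1209 domains (68.4%) it exceeded 5000 bp.

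A domain was typically a string of small clusters and single peaks. Grouping summits no more than 1000 bp from the next split the 1768 domains into 14501 subgroups, with a median of 8 per domain and a highest number of 33. Of these subgroups, 8456 were single peaks (58.3%) and 269 held 10 or more (1.86%). Subgroups of several peaks extended over a median of 830 bp between their outer summits. The largest subgroup of a domain held a median of 30.0% of its peaks, and 34 domains (1.92%) formed 1 unbroken subgroup. The largest of all held 34 peaks.

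The member peaks were narrow and stood on ordinary input. Their median length was 112 bp (quartiles 76 and 164), and the longest was 2393 bp. The shortest, 54 bp, equalled the caller's fragment length, so peak length depends in part on that setting. The pileup, the number of overlapping ChIP fragments at the summit as the authors' caller gives it, had a median of 20 (quartiles 15 and 30) and ran from 7 to 104. The fold of pileup over local input, also the authors' value, had a median of 8.58 (quartiles 6.44 and 11.4). The local input background was at its genome-wide floor at 12319 members (40.4%) and under 3 times the genome-wide level at 29242 (95.8%). At 10 times that level or more, called high background here, stood 5 members (0.0164%). The median −log10 q-value was 14.3, far above the cutoff the caller used.

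Values of other cocaine peaks put the members in context, though peak number chose the classes. Median pileup was 20 in the domains, 17 in chains of 2 to 9 and 15 at solitary peaks, with median folds of 8.58, 7.36 and 6.44. Median peak length was 112, 98 and 81 bp in the same order. High background was found at 2.16% of peaks in chains of 2 to 9, at 2.28% of solitary peaks and at 47.3% of peaks in the 146 dense chains that a saline peak removed. The chains of 2 to 9 and the solitary peaks include those with a saline peak. In saline-free chains of 9 peaks, 2 of 2601 peaks had high background (0.0769%), so its rarity is not particular to the domains. The 146 removed chains had a median pileup of 47 and a median fold of 4.77. The condition on saline peaks therefore also took away the dense chains over deep input, 66 of which had a high background by their median peak, whereas the highest median background of a domain was 4.93 times the genome-wide level. Another 73 of the 146 had a median background under 3 times the genome-wide level, and their median pileup of 22 and fold of 8.74 lay close to the values in the domains. No difference between classes was tested, since each list is 1 pool.

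Pileups varied both between and within domains. The median pileup of a domain ran from 9 to 75, with a median of 20 and quartiles of 16.5 and 26.5. Differences between domains made up 35.4% of the variance of log2 pileup, and the rest lay among peaks of the same domain. Median pileup rose with median local background across domains, with a Spearman correlation of 0.65, and median fold did so with 0.47. Input depth thus moved with pileup, and its part in the differences between domains was not tested. A listed peak had to pass the caller's cutoff over its local background. That ties pileup to background among listed peaks to a degree that was not tested. Members within 1 domain share the same libraries, and some may share input background.

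Neighbouring peaks were alike in height. Across 28760 pairs of successive peaks the Spearman correlation of their pileups was 0.47, and the higher of a pair was a median of 1.36 times the lower. The likeness hardly depended on how far apart the pair stood. The correlation was 0.46 in 3734 pairs less than 250 bp apart, 0.48 in 5233 pairs 2000 to 5000 bp apart and 0.40 in 2351 pairs at 5000 bp or more. These are descriptions of pairs that share libraries and, when close, may share input background. Both peaks of a pair also share their domain, and domains differed in pileup level. No like value was computed for peaks of 1 domain that are not neighbours. The likeness is therefore not shown to be particular to neighbours.

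Few domains had a single dominating peak. The highest pileup of a domain had a median of 39 and ran from 15 to 104. It was a median of 1.79 times the domain's median pileup, under 1.5 times in 365 domains (20.6%) and over 3 times in 104 (5.88%). A median of 3 peaks per domain reached at least 80% of the highest. Domains with more peaks had higher top peaks, with a median highest pileup of 32 in domains of 10 peaks and 55.5 in those of 30 or more. A larger number of peaks gives a higher maximum by itself, and the median of the domains' median pileups moved less, from 19 to 22.

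The pileup profile along the span was nearly flat, with slightly lower ends. With each span cut into 10 equal parts, the median pileup was 19 in both outermost parts and 20 to 22 in the 8 parts between. Counted by peak instead of distance, the end peaks of the domains had a median pileup of 18 (quartiles 13 and 26) and the next ones 19. From peak 6 inward, counting the end peak as 1, the median was 22 (quartiles 16 and 32). The interquartile ranges overlapped over most of their width. Domains of 10 peaks have none so far in, and domains with more peaks, whose median pileups were slightly higher, weigh more there. Domain size and position are thus mixed in this difference. The domains had no common summit in their middle.

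The highest peak could lie anywhere along the span. It fell in the centre, between 33.3% and 66.7% of the span, in 477 domains (27.0%, 25.0 to 29.1), and 9009 of all member peaks lay there (29.5%). It was an end peak in 182 domains (10.3%, 8.96 to 11.8), and end peaks made up 11.6% of members. Both shares of members pool the peaks, so domains with many peaks weigh more in them. The highest peaks count once per domain, and a share expected per domain was not computed. Whether the highest peak avoids the ends or the centre is therefore not settled by these shares. Where several peaks tied for the highest, as in 149 domains, the leftmost was taken. In the 1619 domains without a tie the centre held 26.8%. The left and right sides, split at the middle peak, were about as often the higher, with the right side higher in 825 domains, the left in 850 and both equal in 93. Their median pileups were within 1.5-fold of each other in 1369 domains (77.4%) and more than 2-fold apart in 114 (6.45%).

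**Figure D3:**
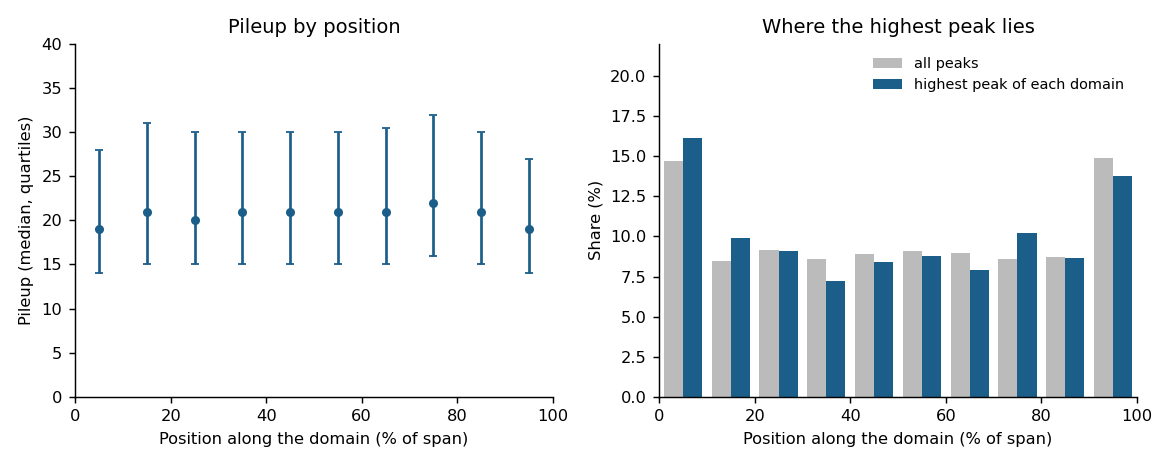
Left, pileup in fragments (point, median; bars, quartiles) of the member peaks by position along the domain in 10 equal parts of its span; right, share in % of all member peaks and of the highest peaks of the 1619 domains without a tie in each part. Medians stay between 19 and 22. Both shares are largest in the outermost parts, and every span begins and ends with a peak. The share of all peaks weighs large domains more, whereas the highest peaks count once per domain.

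Single domains departed from the flat profile in several ways. The domain with the highest median fold, 17.9, was at chr14:82762165-82789292. Its 11 pileups were 30, 42, 52, 47, 48, 39, 49, 52, 38, 49 and 14 in order, so that all but the outermost peaks stood at a like height. The domain at chr1:80549066-80561367 followed with a median fold of 15.9 and pileups of 47, 58, 44, 47, 43, 24, 51, 44, 36, 33, 42 and 49. The other 4 of this kind, at chrX:33648697-33665820, chr15:28480648-28498191, chr10:35800039-35819820 and chr1:73722691-73753156, had median folds of 15.3 to 15.9 and median pileups of 39 to 45.5. Their median backgrounds were 1.09 to 1.82 times the genome-wide level. Pileups within these 4 domains ran from 11 to 70 in that of chromosome 10 and from 14 to 71 in that of chromosome 1. They ran from 21 to 68 in that of chromosome 15 and from 15 to 50 in that of chromosome X. A ranking by fold over local background favours low backgrounds by itself.

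A different profile was seen at the domain with the highest single pileup, chr18:63138911-63178570. Its 16 pileups were 41, 42, 68, 104, 26, 20, 23, 16, 15, 17, 10, 16, 22, 28, 19 and 20. The first 4 peaks stood within its first kilobase and the other 12 were spread over the remaining span. The peak of 104 fragments had a local background of 9.85 times the genome-wide level and a fold of 8.35, below the median fold of 8.60 in the same domain. The domain at chr18:37712933-37748074 held low and high stretches, with peaks 2 to 7 between 13 and 41 fragments and peaks 8 to 14 between 60 and 101. Its 20 pileups were 91, 33, 30, 15, 13, 41, 27, 60, 79, 82, 67, 81, 96, 101, 27, 67, 24, 68, 74 and 70, and its median background was 3.28 times the genome-wide level.

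**Figure D4:**
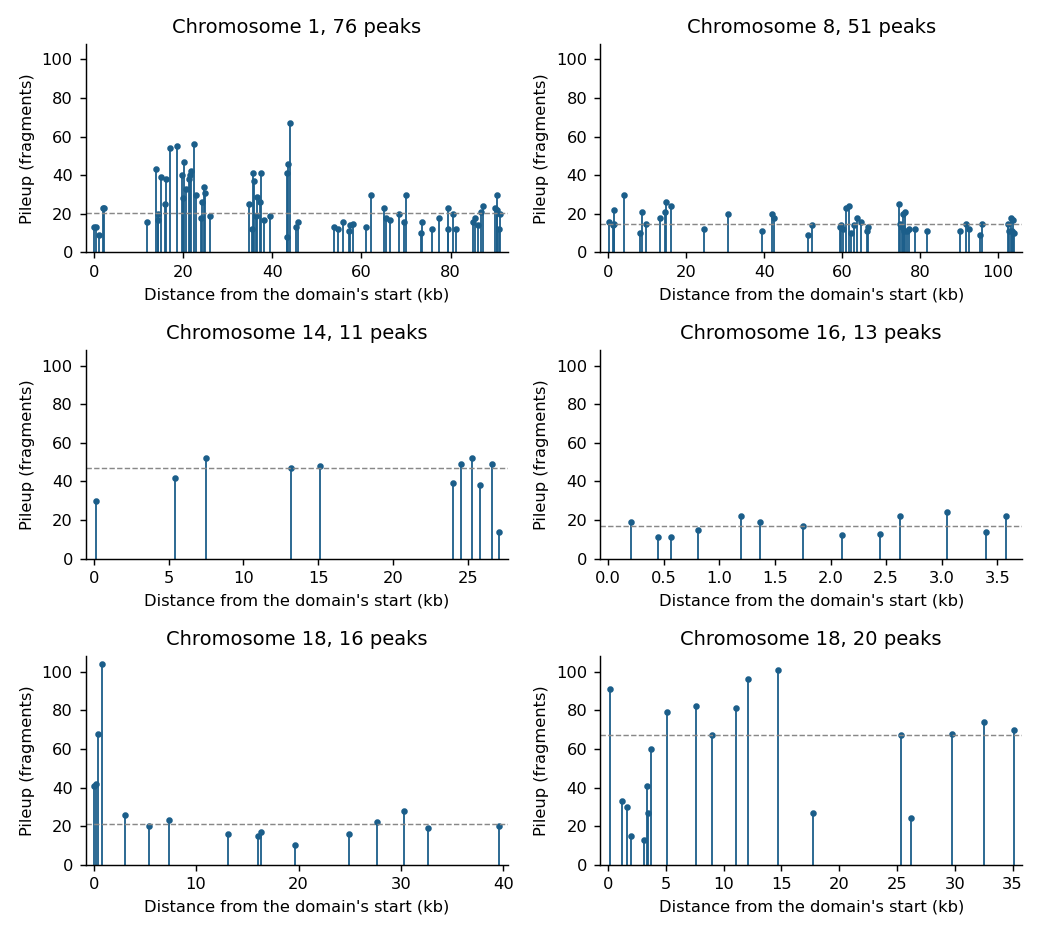
Pileup in fragments (vertical axis, up to the ceiling of 108) of each peak against its summit's distance in kb from the start of the domain, for 6 domains, with the domain's median pileup as a dashed line. The 76-peak domain of chromosome 1 falls in height toward its right side, the domains of chromosomes 8 and 16 stay low throughout, that of chromosome 14 is a plateau, and those of chromosome 18 carry peaks over 100.

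The remaining domains chosen for a high single pileup also carried their tallest peaks on raised input. They were at chr7:2469356-2511738, chr7:11392974-11406783, chr10:86669235-86687913 and chr13:90652460-90676603, with highest pileups of 97, 97, 96 and 95. Local background at those peaks was 7.66 to 9.85 times the genome-wide level. Over all members, 24 peaks reached 90 fragments, and each had a background between 4.74 and 15.3 times the genome-wide level. With 1 tag kept per position and a fragment length of 54 bp, the pileup of the cocaine pool cannot pass 108. Heights near that ceiling are compressed, and what the input adds to them was not tested.

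Domains lay on every chromosome counted and at unequal density. Over the 21 chromosomes there were 6.37 domains per 10 Mb. Chromosome 10 had the most per length, 15.2 per 10 Mb, with 171 domains that held 53.5% of its cocaine peaks. Chromosome 12 followed with 12.2 per 10 Mb. Chromosomes 17, 13 and 11 were lowest, with 3.86, 3.86 and 3.87 per 10 Mb, and the 35 domains of chromosome 17 held 28.9% of its peaks. Chromosome 1, the longest, had the largest number, 238. Lengths were taken as the last cocaine peak end on each chromosome. Cocaine peaks of all kinds were also unevenly spread. Chromosome 10 had 6090 of them over 112.6 Mb and chromosome 13 had 2254 over 113.9 Mb. How far the density of domains follows that of all cocaine peaks was not tested, so the unevenness is not shown to be particular to the domains. Peak height did not follow the density of domains, since the median pileup of members was 19 to 22 on each of the 21 chromosomes.

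Some domains lay close together within chromosomes. The gap from 1 domain to the next on its chromosome had a median of 330.5 kb, but 122 gaps were no more than 20 kb and 285 no more than 50 kb. Of the windows of 1 Mb, 883 held the start of a domain and 83 held 5 or more. The fullest was chromosome 7 from 11 to 12 Mb, with 10 domains and 209 peaks. Chromosome 16 from 20 to 21 Mb and chromosome 1 from 198 to 199 Mb held 9 domains each, with 208 and 197 peaks. No like count was made for other cocaine chains, so this closeness is not shown to be particular to the domains. Gene content, G+C content and mappability of these windows were not analysed here.

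The saline list is short, and the domains were chosen to hold none of its peaks. The nearest saline peak stood at a median distance of 1132 kb from a domain. It was within 100 kb of 156 domains (8.82%) and within 10 kb of 1 domain, at 0.022 kb. The median distance was 1901 kb for the 7522 chains of 2 to 9 peaks without a saline peak and 2210 kb for the 7186 such solitary peaks, with 5.68% and 5.04% of them within 100 kb. Large distances were thus found at saline-free cocaine sites in each of these classes. Requiring 10 kb of clearance would thus have removed 1 domain.

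Some domains carried the same run of peak values more than once. A run counted as recurring when at least 3 peaks had equal pileup, fold, length and summit place as peaks elsewhere, all displaced by the same distance to within 500 bp. There were 52 such pairs, all in the same order along the chromosome, and 78 domains took part (4.41%, 3.55 to 5.47), with 678 matched members (2.22%). Both runs lay in domains in 32 pairs and in 1 and the same domain in 1. The partner was another chain on a chromosome in 15 pairs and lay on an unplaced scaffold in 4. In 46 pairs the runs were on the same chromosome.

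The longest match joined chr1:213991358-214067674 and chr1:214428554-214504580, with 24 matched peaks at a displacement of 436.9 kb. The domains at chr1:64018475-64045871 and chr1:64086775-64114171 each had 18 peaks, a span of 27.4 kb and a median pileup of 36.5, with 13 peaks matched at 68.3 kb. The 70-peak domain on chromosome 11 shared 19 peaks with a domain of 31 peaks at chr11:82859785-82893813. Among the other named domains, the 68-peak domain on chromosome 6 shared 10 peaks with chr6:135067742-135085545. The crowded domain at chrX:10510316-10513761 shared 4 with chrX:10523884-10571502. The domain at chr10:70606930-70639020 had all of its 11 peaks matched on an unplaced scaffold. Peaks at chr6:135048151-135048366 and chr6:135110575-135110790 were both 216 bp long and equal in pileup (92) and fold (13.3). Such paired domains are not independent observations. Whether the underlying sequence is repeated in the assembly was not tested, since no genome sequence of this build was used here.

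**Figure D5:**
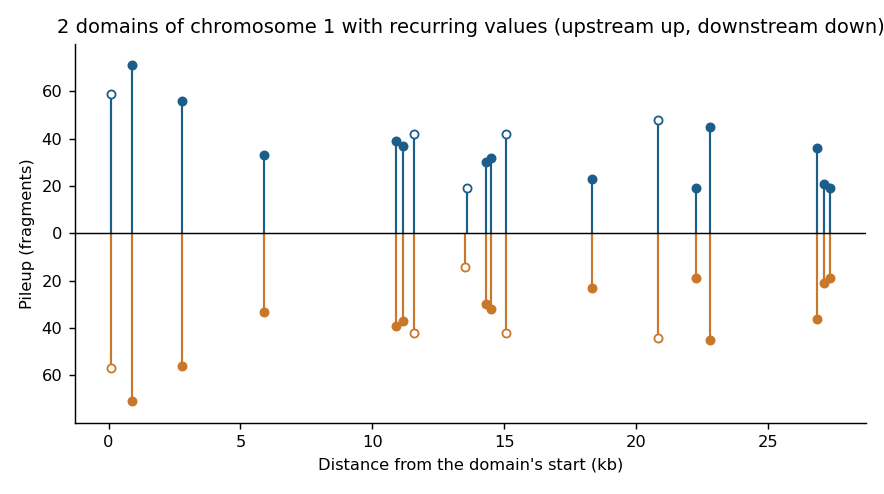
Pileup in fragments against distance in kb from the domain's start for the 18 peaks of each of 2 domains on chromosome 1 whose starts lie 68.3 kb apart, the upstream one drawn upward and the downstream one downward. Filled points mark the 13 peaks with equal pileup, fold, length and summit place, and open points the others; the profiles mirror each other along the whole 27.4 kb.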

How the data were processed

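INO80 ChIP-seq peaks of rat nucleus accumbens were used as deposited, 1 list for cocaine and 1 for saline. The authors called them with MACS version 2.0.10.20131216 on the pooled ChIP samples of a treatment against its pooled inputs, per the file headers, with a q cutoff of 0.05, 1 tag kept per position, a tag size of 51 bp, a fragment length of 54 bp (52 bp for saline) and local backgrounds over 1000 and 10000 bp. The submitters' processing notes name the build rn6. No aligner is named in the sources used here. Pileup, a signal deposited by the authors, gives the fragments stacked at the summit. The deposited fold is a ratio, pileup plus 1 over local background plus 1. Deposited p-values and q-values are −log10 values of the authors' caller. Start, end, length and summit are positions in bp per the file headers. Samples were grouped by the treatment in their titles, and depth is known for the pools only.

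Pileup and fold together gave the local background, expressed here as a multiple of the genome-wide level, 1.17 fragments for cocaine and 0.986 for saline. Recomputed −log10 p-values differed from the deposited ones by at most 5.7e-05. Peaks were sorted and chained at 10000 bp, and spacing is the distance between successive summits. Position along a domain is the summit's place in the span. The domains named are the 6 highest by each of 5 measures: peak number, median fold, span, peaks per kb and single pileup under 10 times background, 29 domains in all. Recurring domains and crowded windows were chosen after their values were seen. The members and lists were chosen with earlier results of these data known. Shares carry Wilson 95% intervals. Alternatives were other chaining distances and peak minimums, other saline conditions, joined peaks, stricter q-values, low-background peaks only, position by peak rank, repeated domains left out and the last of tied peaks. Chaining and the search for recurring runs were tested on simulated data. Scripts ran under Python 3.11.15 with scipy 1.17.1, pandas 2.3.3 and numpy 2.4.6. The gene and promoter tables at hand are of another build, so genes and sequences at the domains were not analysed here.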

Additional observations from a re-analysis of the deposited data

How the results depend on the processing

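The reported values were 1768 domains, a median span of 24.8 kb, a median spacing of 817 bp and a share of 27.0% with the highest peak in the centre, between 33.3% and 66.7% of the span. Span and spacing depended on how chains were defined. A chaining distance of 5000 bp gave a span of 14.6 kb and a spacing of 641 bp. A distance of 20000 bp gave 40.6 kb, 1007 bp and a central share of 24.5%. A minimum of 8 peaks gave 21.4 kb and 846 bp, and a minimum of 15 gave 879 domains, 31.3 kb and 748 bp. Joining peaks closer than 500 bp before chaining gave 848 domains, 34.6 kb and 2108 bp, and their spans held 59.6% of the member peaks. Position by peak rank put 35.8% of the highest peaks in the centre. The share of all members in the centre was 29.5% by distance and was not computed by rank. The 35.8% therefore does not show a shift of the highest peak toward the centre. The number of domains was 1379 and 1965 at 5000 and 20000 bp and 2419 with a minimum of 8. Other saline conditions, q-values of 0.01 or 0.001 and low-background peaks only gave 1715 to 1772 domains. Spans were 24.8 to 24.9 kb, spacings 817 to 819 bp and central shares 26.8% to 27.0%. These settings kept 97.7% to 100% of the member peaks, so close values were largely fixed in advance. Leaving out the 31 later copies among recurring domains gave 1737 domains, 24.8 kb, 819 bp and 26.9%. Taking the last of tied peaks gave a central share of 26.5%. Both were chosen after seeing the data. No paired analysis was possible because the authors pooled the samples of a treatment into 1 list. For the same reason no sample could be left out. The pools set the depth, and peaks too weak for the caller's cutoff are missing from both lists.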
